A study of Homo sapiens with 15 samples.

Results

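Transcripts of 10 glycosyltransferase genes, out of 33158 gene symbols in the expression table, were followed across triple negative breast cancer cells. The genes are 8 fucosyltransferases (FUT1, FUT2, FUT3, FUT4, FUT6, FUT8, FUT10 and FUT11), the N-acetylgalactosamine transferase B4GALNT2 and the N-acetylglucosamine transferase B3GNT3. They were selected by symbol, with their measured values in view: FUT3 was lower in cancer stem cells (CSCs) of both sorted lines, and B4GALNT2 moved in opposite directions in them. The contrast between CSCs and non-CSCs is therefore given for these genes as a description, without a test. RNA had been sequenced in 15 libraries, 3 in each of 5 groups. SUM149PT and HCC1937, both established triple negative breast cancer lines, were each sorted into CSCs (CD44+CD24-/low) and non-CSCs. The third line, SUM159PT, also triple negative, was sequenced unsorted, and the study treated it as CSCs since nearly all of its cells had that surface pattern. No group received a drug or a genetic change. Values are FPKM, fragments scaled to transcript length and to the mapped fragments of a library, which can be set side by side between genes.

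Fucosyltransferases move fucose from GDP-fucose onto glycans in the Golgi. FUT1 and FUT2 build the H antigen, FUT3, FUT4 and FUT6 build Lewis antigens on the ends of glycan chains, and FUT8 adds fucose to the core of N-glycans. FUT10 and FUT11 belong to the same family by sequence. B4GALNT2 makes the Sda antigen and competes with sialyl Lewis structures for the same precursor, while B3GNT3 extends mucin-type O-glycans that can carry ligands of selectins. Fucosylated epitopes are widely studied on breast and other epithelial cancers, where Lewis structures take part in adhesion to endothelium.

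The Lewis gene FUT3 had the highest FPKM of the 10 genes in SUM149PT non-CSCs and was low in CSCs. In SUM149PT it measured 12.4, 11.9 and 11.96 FPKM in non-CSC libraries 1, 2 and 3, and 1.49, 0.890 and 1.11 FPKM in the CSC libraries. In HCC1937 it measured 18.1, 17.6 and 16.1 FPKM in non-CSCs and 2.02, 1.99 and 2.00 FPKM in CSCs. All 6 CSC libraries lay below all 6 non-CSC libraries. The mean was 10.4-fold higher in non-CSCs than in CSCs of SUM149PT and 8.63-fold higher in HCC1937. In SUM159PT, FUT3 was listed at 0 in all 3 libraries. An exact 0 in this table need not mean absence, since PSMB3, NDUFA3 and NDUFA6, which are used by every cell, were listed at 0 in all 15 libraries. In these bulk libraries, fewer cells with a transcript and less transcript per cell cannot be told apart.

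**Figure D1:**
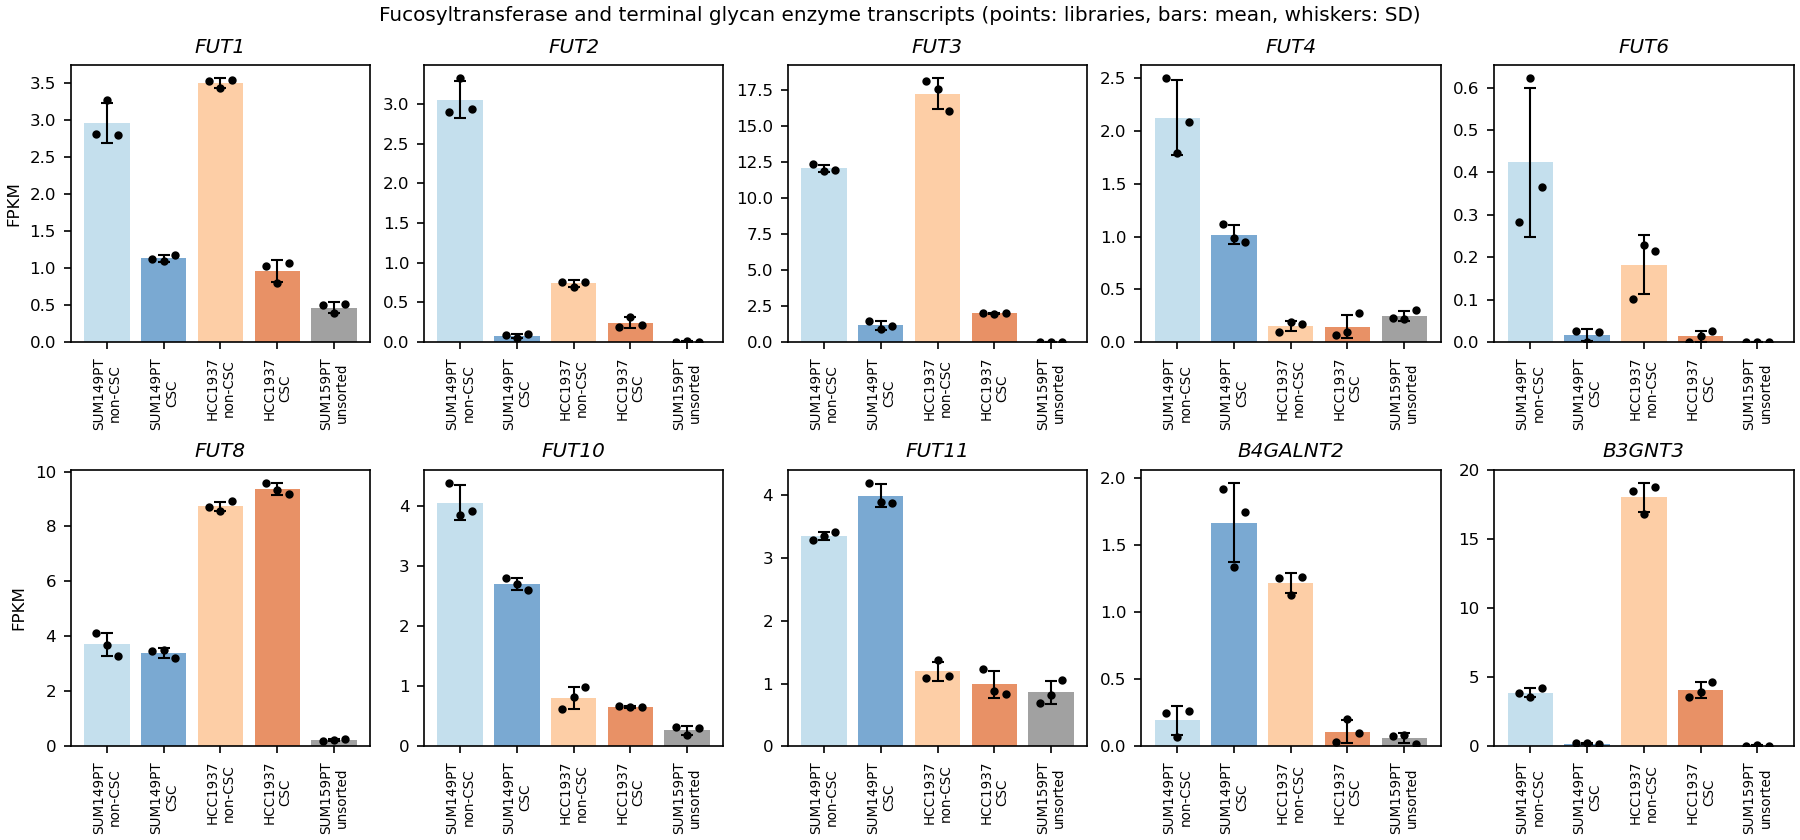
FPKM of the 10 genes (vertical axes, a separate linear scale for each gene) in the 5 groups (horizontal axes). Points are libraries, bars are means and whiskers are SD (n = 3). FUT3 stands at 12.1 and 17.3 FPKM in the non-CSC groups and at 1.16 and 2.00 FPKM in the CSC groups, whereas B4GALNT2 is high in SUM149PT CSCs and HCC1937 non-CSCs.

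FUT3 lies on chromosome 19 of GRCh38 (chr19:5842888-5851474, reverse strand), between FUT6 (chr19:5830610-5839731) and FUT5 (chr19:5865826-5870540), its close paralogs. The gaps are 3156 bases to FUT6 and 14351 bases to FUT5. Of the 3285 different windows of 50 bases in annotated FUT3 transcripts, 13.8% occur also in a transcript of FUT5 or FUT6. For FUT6 the share was 7.78% of 4718 windows, and for FUT5 22.5% of 1941. Fragments from these windows cannot be assigned to 1 gene, so the values of FUT3, FUT5 and FUT6 are uncertain. For FUT6 the share does not bound the uncertainty, since 325 of its windows (6.89%) occur in FUT3, which was listed far higher. Non-CSC means were 0.424 FPKM for FUT6 and 12.1 for FUT3 in SUM149PT, and 0.182 and 17.3 FPKM in HCC1937. How much of the FUT6 value came from FUT3 fragments was not tested, and it could be all of it. The other members shared no such window with each other or with FUT5.

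Promoters of 8 of the 10 genes, 12 start sites in all, were taken from a RefSeq promoter table (GRCh38.p14). FUT10 was not looked up, and FUT11 had no promoter listed. The 250 bases before the start were searched on both strands for the letters CACCTG, which read CAGGTG from the opposite strand and form the E-box bound by ZEB and SNAI repressors, for AACCGGTT, a Grainyhead-like motif, and for TGANTCA, the AP-1 motif. The E-box was present in 5 of the 12 promoters, against 17.5% of all 35116 promoters in the table. AP-1 letters were in 1 of the 12 (FUT8) against 6.57% of all, and AACCGGTT was in 0.117% of all promoters and in none of the 12. The promoter of FUT3 is shown because the choice of genes turned on it, that of FUT2 because its fractions were furthest apart in SUM149PT, and those of B4GALNT2 because its fractions differed in opposite directions. They are written 5′ to 3′ on the strand of the gene, with the E-box in capitals. FUT3 lies at chr19:5851450-5851699 (reverse strand), FUT2 at chr19:48695721-48695970 (forward), and B4GALNT2 at chr17:49132210-49132459 and chr17:49132519-49132768 (both forward).
FUT3: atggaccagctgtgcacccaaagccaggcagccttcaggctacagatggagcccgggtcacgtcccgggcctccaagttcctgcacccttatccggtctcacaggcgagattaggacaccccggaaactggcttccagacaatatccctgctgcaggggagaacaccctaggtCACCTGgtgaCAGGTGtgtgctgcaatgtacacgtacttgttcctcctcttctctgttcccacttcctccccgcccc
FUT2: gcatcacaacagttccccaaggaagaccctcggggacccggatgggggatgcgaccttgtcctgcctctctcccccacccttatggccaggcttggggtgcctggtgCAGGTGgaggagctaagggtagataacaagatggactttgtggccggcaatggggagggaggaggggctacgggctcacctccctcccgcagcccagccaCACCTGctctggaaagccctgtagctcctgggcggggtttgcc
B4GALNT2, first start: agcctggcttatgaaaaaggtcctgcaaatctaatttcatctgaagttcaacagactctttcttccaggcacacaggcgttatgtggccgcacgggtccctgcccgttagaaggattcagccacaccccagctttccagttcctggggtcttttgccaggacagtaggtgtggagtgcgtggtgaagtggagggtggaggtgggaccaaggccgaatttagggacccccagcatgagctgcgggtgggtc
B4GALNT2, second start: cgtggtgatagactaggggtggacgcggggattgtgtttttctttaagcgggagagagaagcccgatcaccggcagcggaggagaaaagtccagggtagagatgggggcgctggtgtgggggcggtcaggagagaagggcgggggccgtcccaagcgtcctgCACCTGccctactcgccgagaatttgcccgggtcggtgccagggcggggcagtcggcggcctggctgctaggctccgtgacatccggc

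In FUT3 the matches began 77 and 67 bases before the start. In FUT2 they began 143 and 43 bases before it. FUT1 had 2 matches before its second start, 199 and 69 bases from it, and none before its first. The first start of B4GALNT2 had no match and the second had 1, beginning 88 bases before it. FUT8 had 1 match, 179 bases before its first start, and none before its other starts. FUT4, FUT6 and B3GNT3 had none, so genes with lower means in CSCs were found with and without a match. The last 25 bases of the FUT3 window fall in an annotated exon of FUT3, and the windows of FUT2 and B4GALNT2 contain no exonic bases of their genes. The windows of the first FUT1 start and the second FUT8 start lie wholly in annotated exons of their genes. Those of FUT4, FUT6, B3GNT3 and the second FUT1 start lie partly in such exons. These matches are letters in a window and were not tested for binding.

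FUT6, a Lewis-type enzyme known from plasma and liver, followed the direction of FUT3 at far lower levels. It shares transcript windows with FUT3, so this direction may not be independent of FUT3, which was not tested. The non-CSC values of FUT6 were 0.283, 0.621 and 0.366 FPKM in SUM149PT and 0.102, 0.230 and 0.214 FPKM in HCC1937. Its CSC values were 0.0257, 0 and 0.0228 FPKM in SUM149PT and 0, 0.0145 and 0.0262 FPKM in HCC1937, and it was listed at 0 throughout SUM159PT. CSC and non-CSC libraries did not overlap in either line, but most of these values are so low that FUT6 missed the expression minimum (a mean of 0.1 FPKM) in HCC1937. FUT4, which makes Lewis x (CD15), differed by line rather than by direction. It measured 2.50, 1.79 and 2.08 FPKM in SUM149PT non-CSCs and 1.12, 0.982 and 0.953 FPKM in SUM149PT CSCs. In HCC1937 it stayed between 0.0708 and 0.272 FPKM, and the fractions overlapped.

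The H antigen genes FUT1 and FUT2 were lower in CSCs of both lines, FUT2 by unequal amounts. FUT1 measured 2.82, 3.27 and 2.80 FPKM in SUM149PT non-CSCs against 1.12, 1.09 and 1.18 FPKM in CSCs. In HCC1937 it measured 3.53, 3.43 and 3.55 FPKM in non-CSCs against 1.03, 0.796 and 1.07 FPKM in CSCs. The 2 fractions were well apart in each line, with non-CSC means 2.61-fold and 3.63-fold higher. FUT2, the secretor gene, lies 42060 bases from FUT1 on chromosome 19. It measured 2.90, 3.32 and 2.93 FPKM in SUM149PT non-CSCs and 0.0928, 0.0515 and 0.0977 FPKM in CSCs. In HCC1937 it measured 0.763, 0.692 and 0.763 FPKM in non-CSCs and 0.189, 0.320 and 0.217 FPKM in CSCs. The non-CSC mean was thus 37.8-fold higher in SUM149PT and 3.05-fold higher in HCC1937. FUT1 and FUT2 were almost level in SUM149PT non-CSCs (ratio 0.970, 0.985 and 0.956 in the 3 libraries), but FUT1 exceeded FUT2 by 12.1-fold to 21.3-fold in SUM149PT CSCs.

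FUT8, the core fucosyltransferase, was nearly level between fractions. It measured 3.49, 3.51 and 3.21 FPKM in SUM149PT CSCs and 4.14, 3.70 and 3.28 FPKM in non-CSCs, which overlap. In HCC1937 it measured 9.59, 9.33 and 9.17 FPKM in CSCs and 8.72, 8.56 and 8.91 FPKM in non-CSCs, a 1.07-fold difference of means without overlap. The sign of the SUM149PT difference in FUT8 turned under quantile normalization, from -0.12 to 0.07 on the log2(FPKM + 0.1) scale. FUT10 ranged from 3.85 to 4.39 FPKM in SUM149PT non-CSCs and from 2.61 to 2.80 FPKM in CSCs. In HCC1937 its fractions overlapped, between 0.615 and 0.985 FPKM. FUT11 was slightly higher in SUM149PT CSCs (3.88 to 4.204 FPKM) than in non-CSCs (3.30 to 3.42 FPKM), and its HCC1937 fractions overlapped between 0.841 and 1.37 FPKM.

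B4GALNT2 was the only member whose fractions separated in opposite directions in the lines. In SUM149PT it measured 1.91, 1.34 and 1.75 FPKM in CSCs against 0.249, 0.0703 and 0.267 FPKM in non-CSCs, so every CSC library was higher. In HCC1937 it measured 0.0304, 0.201 and 0.0994 FPKM in CSCs against 1.26, 1.13 and 1.26 FPKM in non-CSCs, so every CSC library was lower. The mean was 8.53-fold higher in SUM149PT CSCs and 11.1-fold higher in HCC1937 non-CSCs, or 18.8-fold without HCC1937 CSC replicate 2. SUM159PT was low, at 0.0786, 0.0824 and 0.0164 FPKM. In SUM149PT CSCs, B4GALNT2 exceeded FUT3 in each library (ratio 1.28, 1.503 and 1.57). In each other sorted group FUT3 exceeded B4GALNT2, by 9.90-fold or more in every library.

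**Figure D2:**
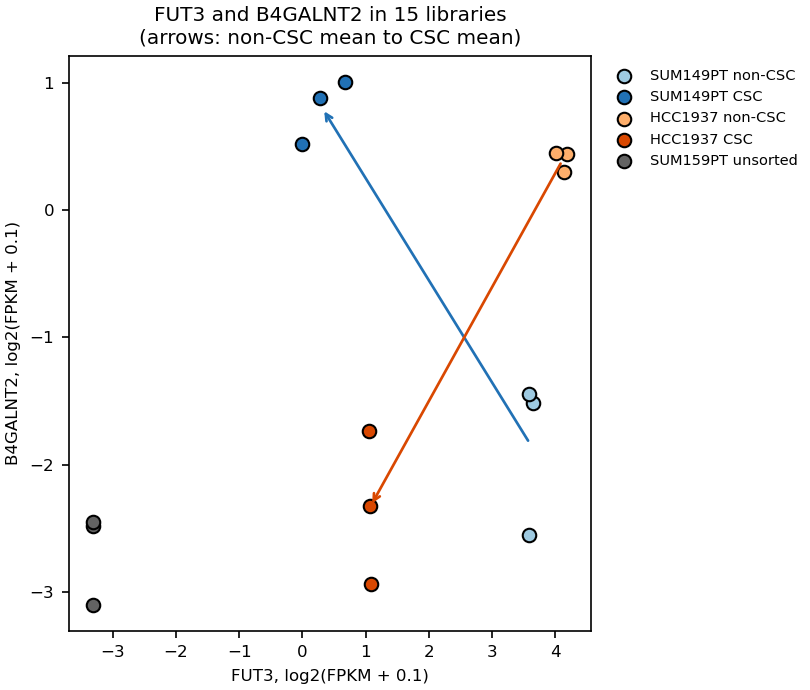
FUT3 (horizontal axis) and B4GALNT2 (vertical axis), both as log2(FPKM + 0.1), in the 15 libraries, coloured by group. Arrows run from the non-CSC mean to the CSC mean of a line: both point to lower FUT3, and B4GALNT2 goes up by 2.65 in SUM149PT and down, by -2.73, in HCC1937.

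B3GNT3 was lower in CSCs of both lines and much higher in HCC1937. It measured 3.86, 3.55 and 4.198 FPKM in SUM149PT non-CSCs and 0.216, 0.237 and 0.156 FPKM in CSCs. In HCC1937 it measured 18.5, 16.8 and 18.8 FPKM in non-CSCs and 3.56, 3.95 and 4.68 FPKM in CSCs. The CSCs of HCC1937 thus held about as much B3GNT3 as the non-CSCs of SUM149PT, and these groups overlapped. Non-CSC means were 19.0-fold higher than CSC means in SUM149PT and 4.43-fold higher in HCC1937.

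Counted over the family, 9 of 10 genes had non-overlapping fractions in SUM149PT (7 lower and 2 higher in CSCs), beside 78.7% of all genes tested. All 10 passed the expression minimum there. In HCC1937, where FUT6 did not pass, it was 6 of 9 (5 lower and 1 higher), beside 43.4%. Because the genes were chosen on this contrast, nothing is read from these counts.

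**Figure D3:**
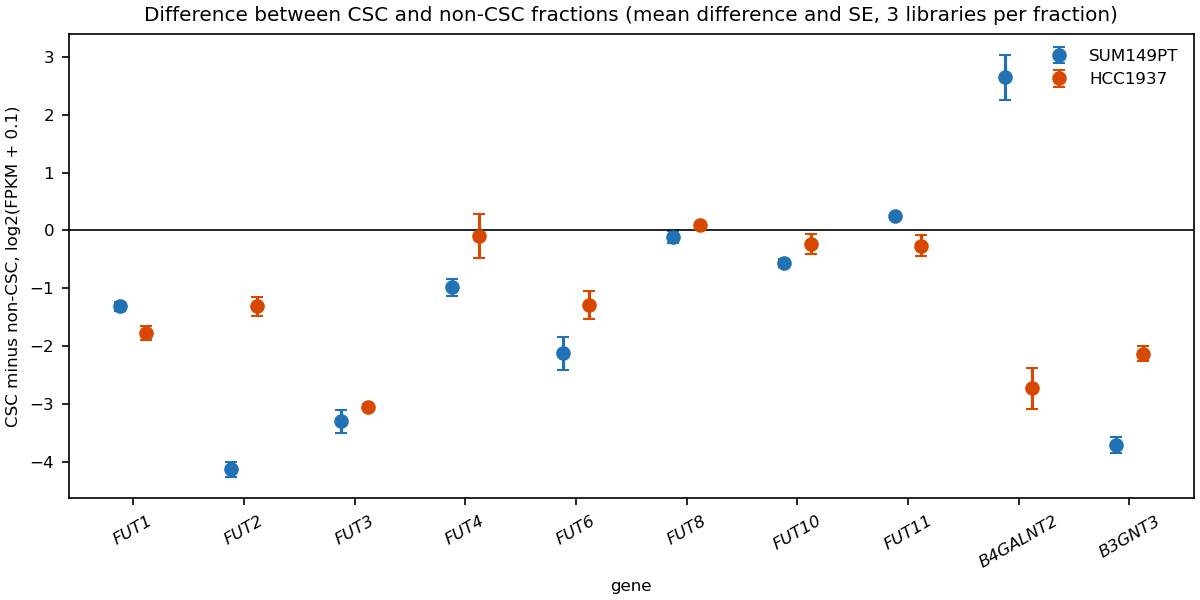
Difference between CSCs and non-CSCs on the log2(FPKM + 0.1) scale (vertical axis) for the 10 genes (horizontal axis) in SUM149PT and HCC1937, as the difference of means with its SE (3 libraries per fraction). FUT3 is at -3.30 and -3.05, FUT8 is near 0, and B4GALNT2 is on opposite sides of 0.

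Summed over the 8 fucosyltransferases, FPKM was 32.7, 31.8 and 30.8 in SUM149PT non-CSCs and 14.3, 13.1 and 13.1 in CSCs. The HCC1937 sums were close to these, at 33.1, 32.9 and 31.8 in non-CSCs and 14.8, 14.1 and 14.3 in CSCs. The Lewis-type genes FUT3, FUT4 and FUT6 made up 46.1% ± 0.956 of the sum in SUM149PT non-CSCs and 16.2% ± 2.07 in CSCs (SD, n = 3). In HCC1937 their share was 54.0% ± 1.96 in non-CSCs and 15.05% ± 1.015 in CSCs. FUT3 was the largest single share in the non-CSCs of both lines (38.0% in SUM149PT and 53.0% in HCC1937), and the CSCs of the lines had different leading genes. FUT8 took 65.1% ± 1.03 of the sum in HCC1937 CSCs but 25.2% ± 1.35 in SUM149PT CSCs, where FUT10 and FUT11 together took 49.6% ± 0.716. In SUM159PT the sum was 1.96, 1.84 and 2.45 FPKM, of which FUT11 alone was 41.2% ± 4.83. The fucosyltransferase sums follow the selection on CSC contrasts and are descriptive.

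**Figure D4:**
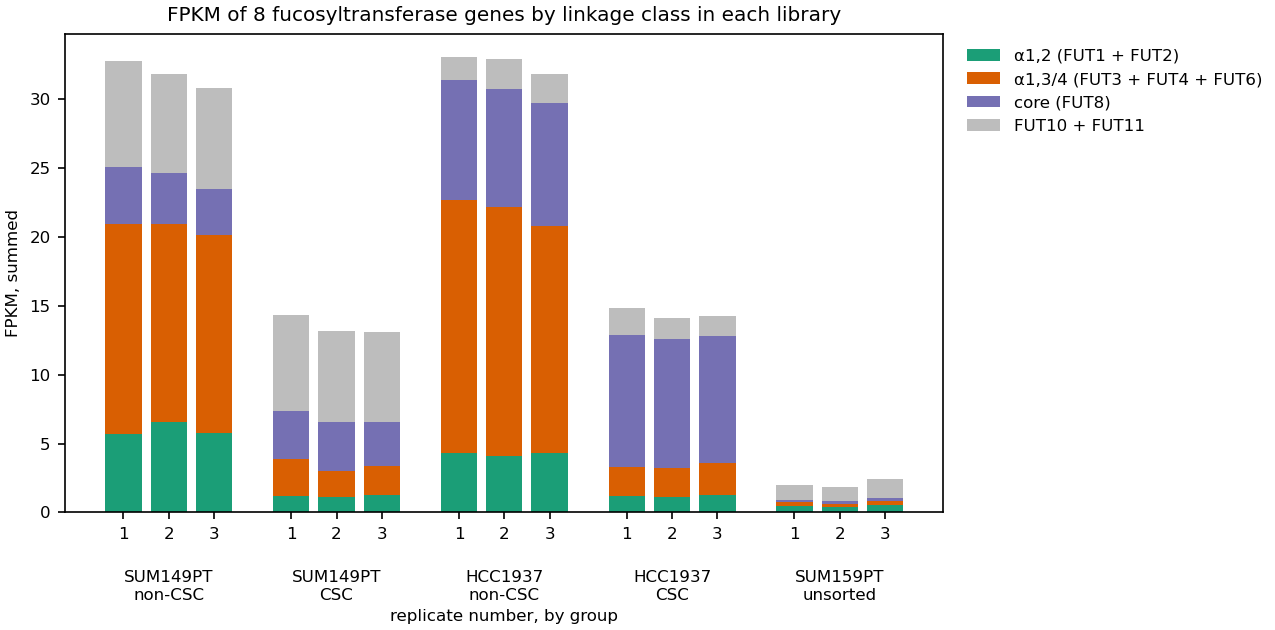
Summed FPKM (vertical axis, from 0) of the 8 fucosyltransferase genes in each library (horizontal axis, replicate number by group), stacked by the H type genes, the Lewis type genes, FUT8, and FUT10 with FUT11. Non-CSC libraries reach 30.8 to 33.1 FPKM, CSC libraries 13.1 to 14.8 FPKM and SUM159PT libraries 1.84 to 2.45 FPKM.

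The genes were chosen on changes within the lines, and B4GALNT2 also on a contrast between them, so its differences between lines are not independent of that choice. Differences between lines were tested with limma on log2(FPKM + 0.1) values, with Benjamini-Hochberg adjustment over all genes tested. Calls needed both an adjusted p no higher than 0.05 and a log2 fold change of 1 or more in either direction. The libraries of a group are replicates of 1 cell line, and no source used here says that they came from separate cultures, so p-values measure the spread between these libraries, which may be technical.

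In CSCs, FUT8 and B3GNT3 were higher in HCC1937 than in SUM149PT, and FUT4, FUT10 and FUT11 were lower. FUT8 was 2.75-fold higher by means (log2 fold change 1.44, SE 0.06, adjusted p = 9.29e-06) and B3GNT3 20.0-fold higher (3.78, SE 0.15, adjusted p = 5.84e-06). FUT10 was 4.09-fold higher in SUM149PT (-1.88, SE 0.06, adjusted p = 2.84e-06) and FUT11 4.04-fold (-1.93, SE 0.15, adjusted p = 7.03e-05). FUT4 was 6.96-fold higher in SUM149PT (-2.27, SE 0.30, adjusted p = 0.000805), or 12.2-fold without HCC1937 CSC replicate 3. In each of these genes all 3 libraries of a line lay on 1 side of the other line. FUT3 and FUT2 were above SUM149PT in all 3 HCC1937 libraries, with log2 fold changes of 0.76 and 0.91 that missed the size limit (adjusted p 0.00849 and 0.00437), and FUT1 missed it at -0.22 (adjusted p = 0.132). FUT2 averaged 0.0806 FPKM in SUM149PT CSCs and entered this test only through HCC1937, so its direction was favoured by the filter. It passed the size limit when HCC1937 CSC replicate 1 was left out (log2 fold change 1.02), on values rescaled to TPM (1.22) and with a pseudocount of 0.01 (1.48). With a pseudocount of 1, FUT4 was under it (-0.82). Of 8 members tested other than B4GALNT2, 2 were called higher, beside 26.1% of all genes, and 3 lower, beside 17.7%. The member FUT6 was under the expression minimum.

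The non-CSCs gave the same order for most of these genes. FUT8 was 2.35-fold higher in HCC1937 (log2 fold change 1.22, SE 0.10, adjusted p = 7.70e-05) and B3GNT3 4.66-fold (2.19, SE 0.09, adjusted p = 6.27e-06). FUT4 was 14.0-fold higher in SUM149PT (-3.15, SE 0.19, adjusted p = 2.39e-05), FUT10 5.04-fold (-2.22, adjusted p = 5.59e-05) and FUT11 2.80-fold (-1.42, adjusted p = 4.49e-05). FUT2 was 4.13-fold higher in SUM149PT non-CSCs (-1.91, SE 0.08, adjusted p = 7.60e-06), the reverse of its order in CSCs, where the difference was not called. FUT1 and FUT3 were higher in all 3 HCC1937 libraries by less than the size limit (0.24 and 0.51, adjusted p 0.0374 and 0.000913). FUT6 differed by -0.87 (adjusted p = 0.0370), and passed the limit without SUM149PT non-CSC replicate 1 (-1.07) or HCC1937 non-CSC replicate 2 (-1.002). It also passed with a pseudocount of 0.01 (-1.18), TPM rescaling (-1.22) and upper quartile scaling (-1.04). Of 9 members tested other than B4GALNT2, 2 were called higher, beside 22.0% of all genes, and 4 lower, beside 20.7%. FUT8 was just under the size limit with upper quartile scaling (0.99), as was FUT11 with a pseudocount of 1 (-0.99). B4GALNT2 had a log2 fold change of -3.14 between the CSCs and 2.24 between the non-CSCs of the lines (0.90 with a pseudocount of 1). These values are tied by arithmetic to the opposite changes on which it was chosen and give no further support to them.

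**Figure D5:**
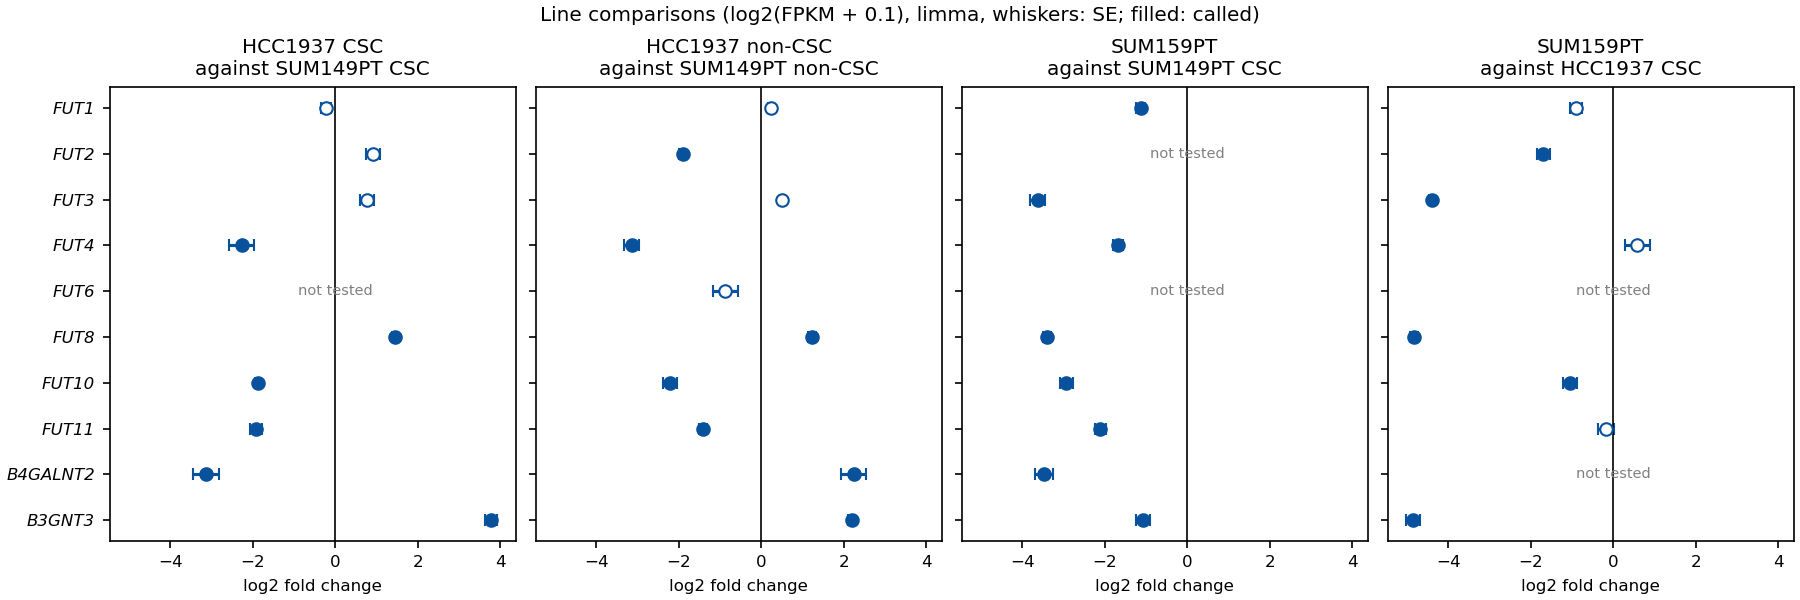
Log2 fold changes (horizontal axes, log2(FPKM + 0.1) scale, whiskers SE) of the 10 genes (vertical axis) in 4 comparisons between lines, 3 libraries against 3. Filled points were called and open points were not. FUT8 and B3GNT3 are right of 0 in both comparisons of HCC1937 with SUM149PT, and the called points in both SUM159PT comparisons are left of 0.

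SUM159PT had the lowest level of most of these enzymes. FUT8 measured 0.205, 0.219 and 0.271 FPKM there, 14.7-fold below the CSC mean of SUM149PT and 40.4-fold below that of HCC1937. FUT1 measured 0.4998, 0.388 and 0.515 FPKM, FUT2 0, 0.0119 and 0 FPKM, and FUT4 0.232, 0.215 and 0.300 FPKM. FUT10 ranged from 0.186 to 0.325 FPKM and FUT11 from 0.700 to 1.06 FPKM. B3GNT3 measured 0.0278 to 0.0741 FPKM, below every sorted library. FUT4 had another order, with all 3 SUM159PT libraries above the 3 HCC1937 non-CSC libraries and within the range of the HCC1937 CSCs or above it.

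Against SUM149PT CSCs, the 8 members tested were all called lower in SUM159PT, beside 45.6% of all genes called lower and 21.3% called higher. Of these, FUT3, B4GALNT2 and B3GNT3 averaged under 0.1 FPKM in SUM159PT and passed the minimum only through SUM149PT, so that they differ was fixed by the filter. Against HCC1937 CSCs, 5 of 8 were called lower (FUT2, FUT3, FUT8, FUT10 and B3GNT3), beside 48.3% called lower and 18.5% called higher. There FUT2, FUT3 and B3GNT3 passed only through HCC1937, and nothing is read from either count. A large part of the table was thus lower in SUM159PT, and the median log2 fold change over all genes was -0.76 against SUM149PT CSCs and -0.97 against HCC1937 CSCs. Relative to these medians, FUT8 stood at -2.65 and -3.87. FUT10 stood at -2.18 and -0.09, FUT11 at -1.35 and 0.79, and FUT1 at -0.37 and 0.06. FUT4 stood at -0.93 against SUM149PT CSCs and at 1.55 against HCC1937 CSCs. FUT3 stood at -2.87 and -3.43, B3GNT3 at -0.32 and -3.90, B4GALNT2 at -2.73 against SUM149PT CSCs and FUT2 at -0.74 against HCC1937 CSCs. FUT3 was listed at 0 in SUM159PT, so the size of its difference is set by the pseudocount. Without centring it was -3.63 and -4.39, but -1.10 and -1.59 with a pseudocount of 1, and -6.84 and -7.65 with 0.01. Centring thus ended the calls of FUT1, FUT4 and B3GNT3 against SUM149PT CSCs and of FUT2 and FUT10 against HCC1937 CSCs, and FUT4 became a call in the higher direction there. With a pseudocount of 1, FUT2 was at -0.31 and FUT10 at -0.39 against HCC1937 CSCs, and neither was called. The adjusted p-values of FUT8 by limma, without centring, were 4.30e-07 and 1.76e-07, those of FUT10 4.96e-06 and 0.000892. For FUT10 the call against HCC1937 CSCs was lost when SUM159PT replicate 2 was left out, at a log2 fold change of -0.87, and with upper quartile scaling (-0.62). FUT1 became a call lower in that comparison without HCC1937 CSC replicate 2 (-1.02), with TPM rescaling (-1.91) and with a pseudocount of 0.01 (-1.03). FUT11 became a call lower there with TPM rescaling (-1.15), but turned to 0.32 with upper quartile scaling. With quantile normalization, FUT1 turned to 0.39 against SUM149PT CSCs and FUT10 to 0.50 against HCC1937 CSCs, and only FUT3, FUT8, FUT10 and B4GALNT2 stayed called against SUM149PT CSCs. Against HCC1937 CSCs, quantile normalization also turned FUT1 to 0.80 and FUT11 from -0.18 to 1.51, and TPM rescaling turned FUT4 from 0.58 to -0.04. FUT2 and FUT6 were under the expression minimum against SUM149PT CSCs, and FUT6 and B4GALNT2 against HCC1937 CSCs.

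The 5 groups can be put in order for each gene. FUT1 and FUT3 ran from HCC1937 non-CSCs through SUM149PT non-CSCs to the CSC groups and SUM159PT, and no neighbours overlapped. FUT2 was highest in SUM149PT non-CSCs, also without overlap between neighbours. FUT8 was highest in HCC1937 CSCs, and its SUM149PT fractions overlapped each other. FUT10 overlapped between the HCC1937 fractions, and FUT11 between them and between HCC1937 CSCs and SUM159PT. B4GALNT2 was highest in SUM149PT CSCs, just above HCC1937 non-CSCs (lowest 1.34 against highest 1.26 FPKM), and its other 3 groups overlapped in turn.

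The 5 genes most like FUT3 across the 15 libraries were CD24 (Pearson r = 0.994 on log2(FPKM + 0.1)), FOXA1 (0.993), MAP7 (0.992), MBOAT1 (0.992) and PRSS8 (0.991), out of 12164 genes averaging 1 FPKM or more. CD24 is a surface marker on which the fractions were sorted, so its place is not independent of the groups. CD24 averaged 139 FPKM in SUM149PT non-CSCs and 7.74 in CSCs, 150 and 23.3 in HCC1937, and 0.729 in SUM159PT. For B4GALNT2 the nearest were PTPRH (0.914), ANXA8 (0.906), COX19 (0.895), SEL1L3 (0.893) and N4BP3 (0.891). The libraries fall into 5 groups of 3, so these values describe the pattern of group levels and were not tested.

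Markers of cell state moved with the fractions. The 8 epithelial markers (such as EPCAM, CDH1 and KRT19) summed to 2104 to 2145 FPKM in SUM149PT non-CSCs and 142 to 149 in CSCs, and to 1418 to 1648 and 464 to 556 in HCC1937. They summed to 276 to 291 FPKM in SUM159PT, where KRT18 was the most abundant and 3 of the 8 were under 0.1 FPKM in all libraries. That sum rests on KRT8 (mean 132 FPKM) and KRT18 (153), which averaged 36.4 and 40.9 FPKM in SUM149PT CSCs. EPCAM, CDH1, KRT19, ESRP1, GRHL2 and CLDN4 had their lowest means of the 5 groups in SUM159PT. The 7 mesenchymal markers, led by VIM in every group, summed to 463 to 524 FPKM in SUM149PT non-CSCs and 2377 to 2521 in CSCs, to 146 to 217 and 934 to 1088 in HCC1937, and to 1233 to 1262 in SUM159PT. These sums rest on VIM and FN1 and hide other orders. TWIST1 averaged 7.12 FPKM in SUM149PT non-CSCs and 3.45 in CSCs. In SUM159PT, ZEB1 (0.204), ZEB2 (0.158), SNAI2 (2.59) and CDH2 (2.86 FPKM) had lower means than in either non-CSC group. Among 6 leukocyte markers CD14 was present, with means of 51.3 FPKM in SUM149PT non-CSCs and 2.66 in CSCs, 30.3 and 60.3 in HCC1937, and 18.7 in SUM159PT, while the other 5 summed to at most 0.105 FPKM in any library and CD3E was at 0 in all. The 4 endothelial markers summed to 1.59 to 1.83 FPKM in SUM149PT non-CSCs and 0.162 to 0.171 in CSCs, to 0.797 to 0.974 and 0.660 to 0.792 in HCC1937, and to 0.225 to 0.345 in SUM159PT. Of the receptors by which triple negative cancers are defined, PGR was at 0 in 4 of the 5 groups, ESR1 averaged 0.00687 to 1.66 FPKM and ERBB2 3.55 to 19.1 FPKM across groups. CD44 was present in every group, and its HCC1937 fractions overlapped. The part of these markers in the levels of FUT3 and the other members was not tested.

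Enzymes and carriers around the members were taken from 8 lists holding 92 genes, and CSCs were compared with non-CSCs by limma. The lists were chosen with earlier results of these data known. The counts and p-values of listed genes are not independent of that choice, and no enrichment is read from them. In SUM149PT, 11 of 79 tested were called higher in CSCs and 28 lower, beside 12.8% and 22.1% of all genes. In HCC1937, 2 of 74 were higher and 13 lower, beside 2.71% and 6.0%. Some genes called lower averaged under 0.1 FPKM in CSCs and passed the minimum only through non-CSCs, so their direction was fixed by the filter. These were MUC16, CEACAM6, MGAT3, ST8SIA4, B3GALT4, GCNT3, GCNT4 and CD34 in SUM149PT, and ABO in HCC1937. The shares over all genes passed the same filter. Of 72 tested in both lines, 2 were called higher in both and 10 lower in both, beside 1.23% and 4.01% of all genes tested in both. The median log2 fold change of the listed genes was -0.27 in SUM149PT, against -0.11 for all genes, and 0.04 in HCC1937, against -0.03. The change differed between lines, by the interaction over 12 sorted libraries, in 32 of 77 listed genes, beside 30.4% of all genes.

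GALNT3, which starts mucin-type O-glycans, fell in CSCs of both lines: its mean was 1.52 ± 0.156 FPKM in SUM149PT CSCs and 31.5 ± 1.56 in non-CSCs, and 3.60 ± 0.378 and 21.6 ± 0.805 in HCC1937 (SD, n = 3). By limma its log2 fold changes were -4.30 and -2.56 (adjusted p 1.82e-06 and 0.000133). B4GALNT3, a relative of B4GALNT2 that transfers the same sugar, fell in both lines (-4.27 and -2.77, adjusted p 2.63e-06 and 0.000148), unlike B4GALNT2. The fucosidase FUCA1 fell (-2.16 and -1.67), and the carriers MUC16 (-2.15) and CEACAM6 (-2.92) fell in HCC1937. In SUM149PT, MUC16 averaged 0.0506 FPKM in CSCs and 1.499 in non-CSCs, and CEACAM6 was at 0 in CSCs and averaged 0.250 in non-CSCs. Both passed the minimum there only through non-CSCs, so that direction was fixed by the filter, although both are among the 10 counted lower in both lines. PODXL (1.20 and 1.03) and SELPLG (1.48 and 1.25), sialomucins that can carry selectin ligands, rose in both. The largest rises in SUM149PT above 1 FPKM were GALNT5 (3.00) and GALNT14 (2.44). All 6 libraries of a line had non-overlapping fractions for each gene named as changed in both lines.

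By list, the counts of calls are small and stand beside 12.8% higher and 22.1% lower over all genes in SUM149PT, and 2.71% and 6.0% in HCC1937, so several are close to those shares. The O-glycan core enzymes had 5 higher and 7 lower of 16 in SUM149PT, and 1 lower of 15 in HCC1937. Sialyltransferases had 4 higher and 4 lower of 13, and 3 lower of 12. Chain-building galactosyl- and N-acetylglucosaminyltransferases had 5 lower of 16, and 2 lower of 15. The GDP-fucose supply had 2 lower of 6, and 1 lower of 5. Its member TSTA3, an enzyme of GDP-fucose synthesis, was listed at 0.239 FPKM or less in all 15 libraries, so a low value in this table is given only as listed. N-glycan branching enzymes had 3 lower of 7 in SUM149PT, and the 6 tested in HCC1937 were not called. Other blood group and glycolipid transferases had 2 lower of 7, and 2 lower of 8. The remaining fucosyltransferases with the fucosidases had 1 lower of 5 in each line, and glycan carriers had 2 higher and 4 lower of 9, and 2 higher and 3 lower of 8. FUT5, the neighbour of FUT3, averaged 0.187 FPKM in SUM149PT non-CSCs and 0.451 in CSCs, the opposite order to FUT3. In HCC1937 it averaged 0.754 FPKM in non-CSCs and 0.504 in CSCs, the same order as FUT3, and its fractions overlapped. Of the FUT5 windows, 20.3% occur in FUT3, which had a higher mean in every sorted group, so the FUT5 values are uncertain. How much of them came from FUT3 fragments was not tested.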

How the data were processed

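Expression of 33158 gene symbols in 15 RNA-seq libraries was deposited by the authors as FPKM. The submitters' processing notes name Bowtie2 and GRCh38, but the sources used here do not give the role or version of Bowtie2, the quantification tool or any normalization between libraries. Libraries were grouped by line, fraction and replicate number from their labels. FPKM summed to 291276 to 366532 in the sorted libraries and 634746 to 652082 in SUM159PT. Ratios of low values between SUM149PT CSC replicate 1 and each other library were checked for common steps. The commonest ratio held 20.6% of the low genes against SUM149PT CSC replicate 2 and as few as 4.81% against SUM159PT replicate 2. Libraries of the other groups were not compared with each other. Counts were not recovered, so depth is unknown and no counting intervals are given.

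The FPKM values were analysed as log2(FPKM + 0.1) with limma 3.58.1 in R 4.3.3, on the 6 libraries of each comparison and on 12 for the difference of the CSC effect between lines, for genes averaging 0.1 FPKM or more, with Benjamini-Hochberg adjustment across them. The limits were an adjusted p of 0.05 and an absolute log2 fold change of 1. The fit was tested on simulated data. The 8 lists (92 genes) were GDP-fucose supply, other fucosyltransferases and fucosidases, sialyltransferases, chain-building transferases, O-glycan cores, N-glycan branching, other terminal transferases and glycan carriers. Listed genes were named where their fractions did not overlap and they were called alike in both lines (up to 5 per direction, by their smaller fold change), where called oppositely (up to 5), or where they were among the 2 largest called changes of a line and direction with a group mean of 1 FPKM or more. The members and lists were chosen with earlier results of these data known. Likeness was ranked by Pearson correlation. Alternatives were the pseudocount, expression minimum, scaling, eBayes settings, a fit of all 15 libraries, a replicate block, a limit of 0.0001 on the adjusted p and leaving out libraries. Coordinates came from GENCODE release 29 and promoters from RefSeq (GRCh38.p14). Python 3.11.15, pandas 2.3.3, numpy 2.4.6 and matplotlib 3.10.9 were used.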

Additional observations from a re-analysis of the deposited data

Results flagged for a closer look

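B4GALNT2 was noted because its difference between CSCs and non-CSCs had opposite signs in the lines, with log2 values of 2.65 in SUM149PT and -2.73 in HCC1937. This difference was not tested, since it was used to choose the gene. With 3 libraries per group, no single library was tested as an outlier.

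The other results were noted because the lines differed in the CSC effect (SUM149PT minus HCC1937, log2 scale, called by limma over 12 libraries). The difference was 3.38 for GALNT5, 1.55 for GALNT14 and 1.12 for CEACAM6. CEACAM6 was listed at 0 in all SUM149PT CSC libraries, so its change there is set by the pseudocount and 1.12 is not a measure of a smaller change. GALNT5 was under the expression minimum in HCC1937 and entered the comparison through SUM149PT. The difference was -1.74 for GALNT3, -1.50 for B4GALNT3 and -1.26 for MUC16. MUC16 averaged 0.0506 FPKM in SUM149PT CSCs, under the pseudocount of 0.1, so the size of its difference depends on the pseudocount.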

How the results depend on the processing

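For the CSC contrasts, FUT3 kept its direction under all alternatives, with log2 values between -3.47 and -2.60 (SUM149PT) and between -3.10 and -2.60 (HCC1937). B4GALNT2 kept opposite signs, between 1.16 and 3.21 and between -3.65 and -1.0005. Both patterns were used to choose the genes, so these ranges describe the same libraries and give no further support to them. With a pseudocount of 1, the listed genes called went from 39 to 25 in SUM149PT, from 15 to 8 in HCC1937 and from 32 to 19 for the difference between lines. At a limit of 0.0001 on the adjusted p of limma, 15 went to 0 in HCC1937, where no gene of the whole table was called, 39 to 28 in SUM149PT and 32 to 21 for the difference between lines. Members called in SUM159PT against SUM149PT CSCs went from 8 to 5 with a pseudocount of 1, 3 with a minimum of 1 FPKM (fewer genes tested) and 4 with quantile normalization. With upper quartile scaling they were 6, and the calls of FUT1 (-0.86) and B3GNT3 (-0.94) ended. At the limit of 0.0001 they were 7. They were 5 after centring on the median of all genes, an alternative chosen after seeing the data. Against HCC1937 CSCs they went from 5 to 3 with a pseudocount of 1 to 3 with a minimum of 1 FPKM, and to 4 with upper quartile scaling or at the limit of 0.0001, but to 6 with a pseudocount of 0.01 and 7 with TPM. With quantile normalization they were 6, of which FUT4 (1.89) and FUT11 (1.51) were called higher, and with median centring 4, of which FUT4 (1.55) was higher. Under quantile normalization FUT1 reversed to 0.39 against SUM149PT CSCs and FUT10 to 0.50 against HCC1937 CSCs. The cause was not tested.

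The share of all calls that were higher went from 36.5% to 49.9% in SUM149PT CSCs with quantile normalization, and from 31.1% to 42.2% in HCC1937 CSCs with TPM. Between the lines it went, with upper quartile scaling, from 59.6% to 49.4% in CSCs and from 51.5% to 41.2% in non-CSCs. In SUM159PT against SUM149PT CSCs it went from 31.8% to 12.1% with TPM and 49.8% with quantile normalization. Against HCC1937 CSCs it went from 27.6% to 13.0% with TPM, 48.0% with quantile normalization and 38.5% with upper quartile scaling.

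Leaving out 1 library at a time gave 37 to 39 listed genes called in SUM149PT, 13 to 15 in HCC1937 and 30 to 34 for the difference between lines. Members called between the lines, here with B4GALNT2 counted (6 and 7 with all libraries), were 6 to 7 in CSCs and 7 to 8 in non-CSCs. They were 8 each time for SUM159PT against SUM149PT CSCs, and 4 to 5 against HCC1937 CSCs. With the replicate number as a block, these results were 39, 15, 33, 6, 7, 8 and 5, with B4GALNT2 again counted in the 6 and 7. The deviations of libraries with the same number correlated at 0.14, 0.03 and 0.12 in SUM149PT and at -0.16, -0.05 and -0.04 in HCC1937, and not every library correlated best with its own number, so the numbers were not read as pairing. Depth is unknown, so values near 0 have no counting interval.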

Other observations

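The means of 3 further glycan enzymes are given as a description, since they were chosen after their values were seen, for unlike CSC effects in the lines. ST3GAL4, a sialyltransferase, averaged 115 FPKM in SUM149PT non-CSCs and 12.7 in CSCs, and 14.7 and 13.8 FPKM in HCC1937. GCNT1, a branching enzyme of O-glycans, averaged 6.40 and 1.011 FPKM in SUM149PT and 1.11 and 1.94 FPKM in HCC1937. MGAT4A, a branching enzyme of N-glycans, averaged 4.29 and 0.135 FPKM in SUM149PT and 2.50 and 2.14 FPKM in HCC1937. All 3 were lower in SUM149PT CSCs than in non-CSCs. Of the 32 listed genes called for a difference between lines, 22 had the more negative CSC effect in SUM149PT and 10 in HCC1937. Over all genes the 5004 calls leaned the same way, 2990 and 2014, so nothing particular to the listed genes is read from this. Among the 10 was ST3GAL5, with means of 1.64 FPKM in SUM149PT non-CSCs and 4.79 in CSCs, and 1.13 and 0.725 in HCC1937.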
